A study of Homo sapiens with 4 samples.

Results

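The 10 genes described here encode the core machinery that makes and uses microRNAs in human cells: the nuclease DROSHA, the export receptor XPO5, the nuclease DICER1, the Argonaute proteins AGO1, AGO2, AGO3 and AGO4, and the GW182 proteins TNRC6A, TNRC6B and TNRC6C. They were found by gene symbol among the 32955 genes of the expression table, and all 10 were present. In this pathway DROSHA cuts hairpins out of primary transcripts in the nucleus, XPO5 carries the hairpins to the cytoplasm, and DICER1 trims them to short duplexes. An Argonaute protein keeps one strand as a guide and binds messages that pair with it, and a GW182 protein bound to Argonaute recruits the deadenylases that shorten and destabilise those messages. A transfected microRNA mimic is a ready-made duplex, so it enters at the Argonaute step and does not need DROSHA, XPO5 or DICER1.

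The libraries came from the human line MDA-MB-231, which derives from a breast cancer and was grown in DMEM with serum. Cells were transfected with miR-217 mimic (2 libraries) or with a negative control mimic, called mimic NC (2 libraries), so both groups carried a transfected duplex and neither was untransfected. RNA extracted with TRIzol was made into stranded mRNA libraries, and the series asked which genes respond to the mimic. The dose and the time after transfection were not given in the sources used here, the transfection was transient, and 1 cell line stands for the cells studied. The labels number the libraries 1 and 2 in each group without saying what the number marks or that cultures were separate, so p-values measure the spread between these samples, which may be technical. Mature miR-217 and the mimic itself are not measured by mRNA libraries. Total reads assigned to genes were 57933183 and 47374957 for mimic NC and 53356283 and 32635814 for miR-217 mimic, numbers 1 and 2 respectively. Of the genes taken as markers of this cell line, VIM, CD44, AXL and EGFR lay between 6.23 and 36.9 RPKM (reads scaled to exon length and to library size), and ESR1, GATA3 and CDH1 between 0.0294 and 0.433 RPKM. In bulk RNA, fewer cells with a transcript and less of that transcript per cell cannot be told apart.

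A microRNA recognises its targets mainly through its seed, bases 2 to 8, and the members themselves hold letters that pair with the miR-217 seed. The mature guide strand of miR-217 is encoded on the minus strand of chr2:55983020-55983042 (RefSeq, GRCh38.p14) and is shown 5′ to 3′ with the seed in capitals, because the sites that follow are read against it.
hsa-miR-217-5p: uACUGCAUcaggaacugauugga
The longest annotated 3′ UTR of each gene (GENCODE 29, GRCh38) was searched on the transcript strand for the 8-base site ATGCAGTA and the 7-base sites ATGCAGT and TGCAGTA, each 7-base match being counted only outside an 8-base one. The members held 16 such sites in 7 genes, and 2 of the 16 were 8-base sites, in AGO3 and in AGO4. They are shown first, as the longest matches, with the matching bases in capitals, and lie at chr1:36061932-36061939 (plus strand, UTR bases 6187 to 6194) and chr1:35857698-35857705 (plus strand, UTR bases 4093 to 4100).
AGO3 8-base site: aagcttttATGCAGTAaagtatct
AGO4 8-base site: taataagtATGCAGTAcactgtaa
The sites of the processing enzymes follow, since 2 of them in DICER1 lie side by side. DROSHA held 1 at chr5:31400600-31400606 (minus strand), and DICER1 held 2 at chr14:95090068-95090074 and chr14:95090051-95090057 (minus strand).
DROSHA 7-base site: gtgggcccTGCAGTAaaaggcta
DICER1 7-base site, first: tccgtgtgTGCAGTAgtgccagt
DICER1 7-base site, second: gccagtccTGCAGTAgttgataa
AGO1 held a single site at chr1:35929606-35929612 (plus strand), and TNRC6B held 2 at chr22:40329813-40329819 and chr22:40334240-40334246 (plus strand). These are given because AGO1 and TNRC6B were the members with the smallest difference between the groups.
AGO1 7-base site: cttttaagATGCAGTgtttcatc
TNRC6B 7-base site, first: acgaaagtTGCAGTAactgccag
TNRC6B 7-base site, second: caaagtgtATGCAGTgatctcac

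AGO2 held 4 sites of 7 bases, AGO3 a further 3 and AGO4 a further 1, while TNRC6A, TNRC6C and XPO5 held none of these letters in the searched UTR. A site was thus found in 7 of the 10 members, against 2149 (21.68%) of 9911 tested genes whose 3′ UTR is annotated. The members' UTRs were long. They reached 16755 bases in AGO3, 12567 in TNRC6B, 11888 in AGO2 and 10921 in AGO1, and 6 of the 10 were at least 4000 bases, against 12.08% of the tested genes, whose median was 1326 bases. Among tested genes with a 3′ UTR of at least 4000 bases, 59.23% held a site, as did all 6 of these members. The limit of 4000 bases does not match UTRs of 10921 to 16755 bases, so this share does not fully allow for length. Whether the cells use the longest annotated UTR was not measured. The matches describe the letters only, and whether any is bound was not measured here.

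DROSHA (chr5:31400497-31532196, minus strand, hg38), the nuclear enzyme that starts processing, had the highest level of the 10 genes per summed exon length. It stood at 46.5 and 44.0 RPKM in mimic NC and at 49.9 and 48.6 RPKM in miR-217 mimic. Both mimic libraries lay above both controls, and DROSHA was the only tested member whose groups did not overlap. Groups did not overlap for 23.2% of all tested genes, and for 9.72% the mimic libraries were the higher pair. The group means were 45.2 ± 1.72 and 49.3 ± 0.912 RPKM (SD, n = 2 each), a difference of 8.89%, and DROSHA lay above 92.1% of the 13871 genes with a mean of at least 1 RPKM, which were the genes tested.

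XPO5 (chr6:43522330-43576075, minus strand), the carrier of hairpin precursors, stood at 4.34 and 5.19 RPKM in mimic NC and at 4.68 and 5.68 RPKM in miR-217 mimic. The number 2 libraries were the higher ones in both groups, and the groups overlapped. DICER1 (chr14:95086228-95158010, minus strand), the cytoplasmic enzyme, stood at 3.99 and 4.50 RPKM in mimic NC and at 4.04 and 3.65 RPKM in miR-217 mimic. Its highest value was mimic NC 2 and its lowest miR-217 mimic 2, with the number 1 libraries between them. The group means were 4.24 ± 0.364 and 3.85 ± 0.279 RPKM (SD, n = 2 each).

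AGO4 (chr1:35808172-35857890), AGO1 (chr1:35869808-35930528) and AGO3 (chr1:35930718-36072500) lie next to each other on the plus strand, with 11917 bases between AGO4 and AGO1 and 189 between AGO1 and AGO3, while AGO2 lies on chromosome 8 (chr8:140520156-140635619, minus strand). Among these Argonautes, AGO2, the member that can cut a fully paired target, stood at 2.92 and 3.25 RPKM in mimic NC and at 3.15 and 3.17 RPKM in miR-217 mimic. Both mimic values fell between the controls. AGO1, which represses without cutting, stood at 2.74 and 3.0 RPKM in mimic NC and at 2.75 and 3.01 RPKM in miR-217 mimic. The groups were superimposed, and each number 2 library was higher than either number 1 library. AGO4 stood at 1.94 and 1.82 RPKM in mimic NC and at 1.84 and 2.29 RPKM in miR-217 mimic, and AGO3 at 0.995 and 1.05 RPKM in mimic NC and at 0.949 and 1.16 RPKM in miR-217 mimic. For both genes the highest value was miR-217 mimic 2 and the groups overlapped. AGO3 lay just above the level needed to be tested, with 1.06% of the tested genes below it.

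Of the GW182 genes, which encode the scaffold between Argonaute and the deadenylases, TNRC6A (chr16:24610209-24827632, plus strand) stood at 8.24 and 8.45 RPKM in mimic NC and at 8.61 and 6.73 RPKM in miR-217 mimic. A single library, miR-217 mimic 2, was apart from the other 3. TNRC6B (chr22:40044817-40335808, plus strand) stood at 2.22 and 1.89 RPKM in mimic NC and at 2.36 and 1.74 RPKM in miR-217 mimic. Here the number 1 libraries were the higher ones in both groups. TNRC6C (chr17:77959240-78108835, plus strand) was the lowest of the 10 at 0.141 and 0.158 RPKM in mimic NC and at 0.142 and 0.237 RPKM in miR-217 mimic, from 83 to 91 reads per library, and was left out of the test because its mean was below 1 RPKM.

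**Figure D1:**
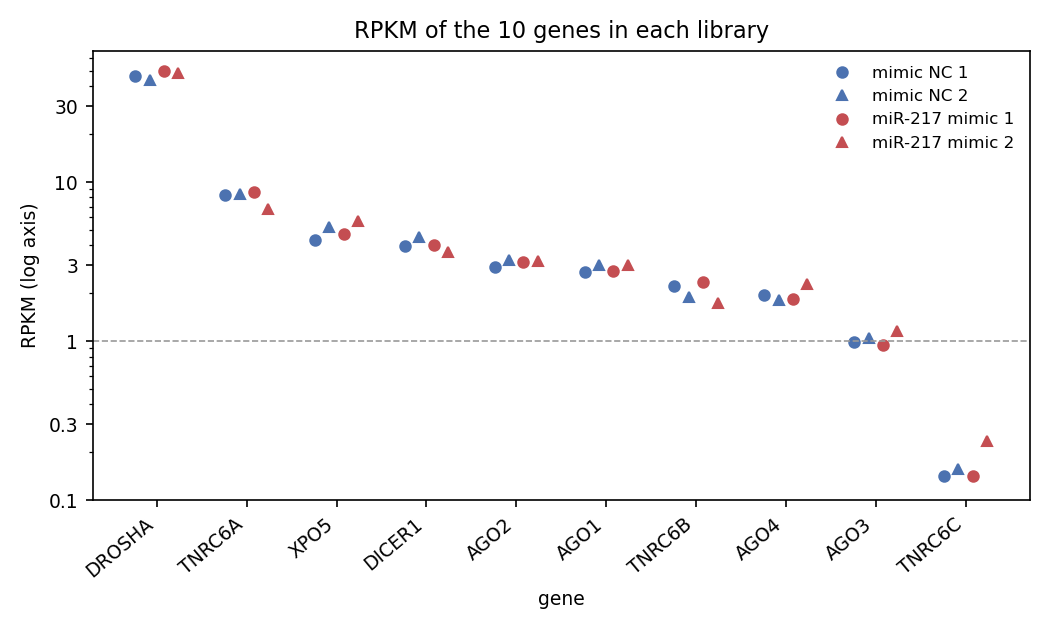
RPKM of each gene in each library (log axis), genes ordered by their mean, with circles for number 1, triangles for number 2, blue for mimic NC and red for miR-217 mimic; the dashed line is the mean of 1 RPKM needed for testing. DROSHA stands near 47.3 RPKM, 5.90 times TNRC6A, and TNRC6C lies far below the rest.

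Ordered by mean RPKM over the 4 libraries, the genes ran DROSHA, TNRC6A, XPO5, DICER1, AGO2, AGO1, TNRC6B, AGO4, AGO3, TNRC6C. The ranges over the 4 libraries overlapped for the neighbours XPO5 and DICER1, AGO2 and AGO1, and TNRC6B and AGO4. Within libraries, XPO5 was above DICER1 and AGO2 above AGO1 in 4 of 4, and TNRC6B was above AGO4 in 3 of 4, so the order was not the same in every library for TNRC6B and AGO4. The other neighbours did not overlap, and the widest steps were at the ends, with DROSHA 5.90 times TNRC6A and AGO3 6.13 times TNRC6C. Reads shared by near-identical stretches of the paralogs may be divided or dropped in a way not given in the sources used here, so the levels of AGO1 to AGO4 and of TNRC6A to TNRC6C are uncertain by an unknown amount. RPKM divides by the summed exon length of each gene, for example 7780 bases for DROSHA and 21157 for AGO3. Which of these exons the cells used was not measured, so the order of the genes and the paralog shares depend on the annotation. Exons of 6 members share bases with another gene, the largest share being the 12.9% of TNRC6C exon bases that overlap TNRC6C-AS1 on the other strand. The remaining 5 shared at most 2.85%.

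AGO1 and AGO2 made up most of the summed RPKM of the Argonautes in every library, and TNRC6A most of the GW182 sum. AGO2 made up 34.0% and 35.6% of the summed RPKM of the Argonautes in mimic NC and 36.2% and 32.9% in miR-217 mimic. The mimic values lay on either side of the controls, with a mean difference of -0.216 percentage points (exact permutation test, two-sided, p = 1.00). AGO1 made up 31.9% and 32.9% in mimic NC and 31.7% and 31.2% in miR-217 mimic. Both mimic shares of AGO1 were below both controls, for which the exact permutation test gave p = 0.333, the smallest that 2 against 2 libraries allow. AGO4 took 22.6% and 19.9% in mimic NC and 21.2% and 23.8% in miR-217 mimic, and AGO3 took 11.6% and 11.5%, then 10.9% and 12.0%. Counted as reads rather than per length, AGO3 (21157 exon bases) held 17.5% and AGO4 (7267 exon bases) 11.03% of Argonaute reads in mimic NC on average, so the order of these 2 genes turns with the unit.

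TNRC6A made up most of the GW182 sum, at 77.7% and 80.5% in mimic NC and 77.5% and 77.3% in miR-217 mimic. Both mimic shares were below both controls, by 1.71 percentage points on average (exact permutation test, two-sided, p = 0.333). As shares of reads the TNRC6A groups overlapped, at 69.9% and 73.4% in mimic NC and 69.6% and 69.9% in miR-217 mimic (exact permutation test, p = 0.667). TNRC6B took 20.9% and 18.0% in mimic NC and 21.2% and 20.0% in miR-217 mimic, and TNRC6C 1.33% and 1.5%, then 1.28% and 2.72%. The summed RPKM of the 4 Argonaute genes was 8.59 and 9.12 in mimic NC and 8.69 and 9.63 in miR-217 mimic, and that of the 3 GW182 genes 10.6 and 10.5, then 11.1 and 8.71. Their ratio, GW182 over Argonaute, was 1.23 and 1.15 in mimic NC and 1.28 and 0.904 in miR-217 mimic. The value under 1 belonged to miR-217 mimic 2, the library with the fewest reads, and the part of depth in it was not tested.

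**Figure D2:**
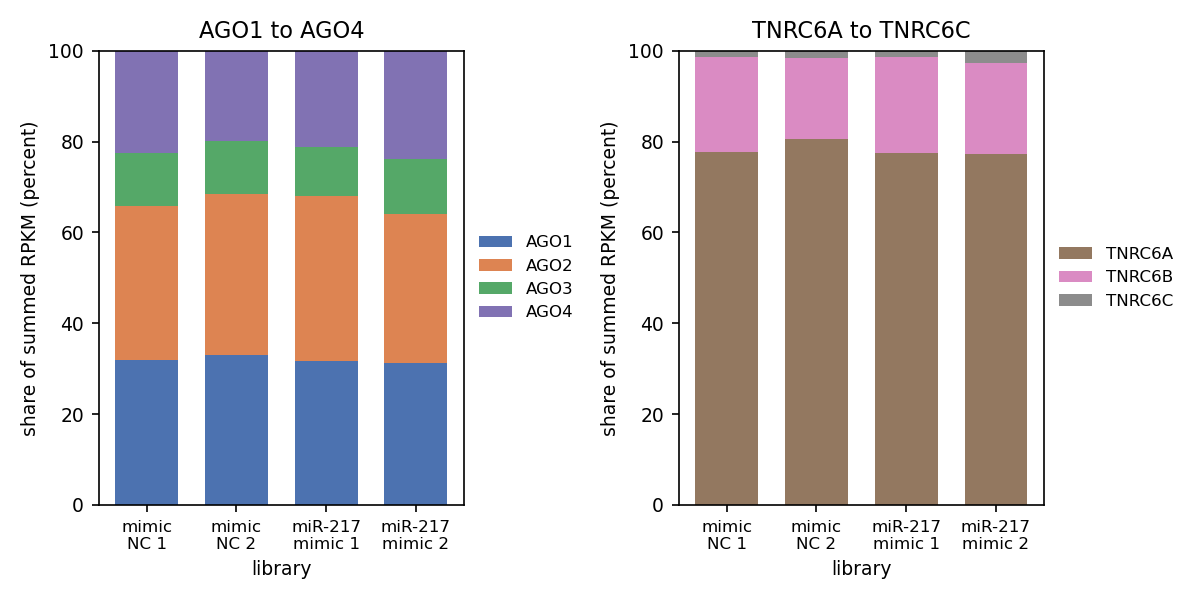
Share of each paralog (percent of the family's summed RPKM) in each library, Argonautes on the left and GW182 genes on the right. AGO1 and AGO2 together take most of the Argonaute sum in every library, and TNRC6A takes 77.3% to 80.5% of the GW182 sum.

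The enzymes were also set against the partners they work with. The ratio of DROSHA to DGCR8, its double-stranded RNA-binding partner in the Microprocessor, was 5.75 and 4.03 in mimic NC and 5.58 and 4.49 in miR-217 mimic. The number 1 libraries were the higher ones in both groups. DICER1 was set over the sum of its partners TARBP2 and PRKRA. This ratio was 0.455 and 0.451 in mimic NC and 0.486 and 0.464 in miR-217 mimic, with both mimic libraries above both controls. The mean RPKM of DICER1 itself was lower with the mimic, at 3.85 against 4.24. The means of its partners were lower too, at 4.26 against 5.38 for PRKRA and 3.83 against 3.98 for TARBP2. The ratio of DROSHA to DICER1 was 11.7 and 9.78 in mimic NC and 12.3 and 13.3 in miR-217 mimic, and again both mimic libraries were the higher ones. Groups did not overlap for 23.2% of single tested genes, and no such share was worked out for ratios. These ratios were chosen with the levels known and were not tested.

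None of the 9 tested members passed the test between miR-217 mimic and mimic NC. The test was limma on log2(RPKM + 1), where the added 1 understates changes of low genes, and a call needed a fold change of 0.32 or more in size (log2) together with an unadjusted p under 0.05. Of all 13871 tested genes, 159 (1.15%) were called, 66 higher and 93 lower, or 88 higher and 77 lower when each library was centred on its median. No gene had an adjusted p under 0.05, and 165 genes (1.19%) had an unadjusted p under 0.05, among them 0 members. limma voom on reads recovered from the RPKM also called 0 members.

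By limma, the largest member differences were those of DROSHA, at a log2 fold change of 0.12 (SE 0.12, 95% interval -0.19 to 0.43), and of TNRC6A, at -0.12 (SE 0.15, -0.51 to 0.28). DICER1 stood at -0.11 (SE 0.13, -0.44 to 0.21) and XPO5 at 0.10 (SE 0.15, -0.29 to 0.49). Each of these intervals holds 0 and also holds differences past the size required for a call, so the libraries bound the effect rather than show its absence. For the Argonautes the log2 fold changes were 0.0042 for AGO1 (95% interval -0.31 to 0.32), 0.028 for AGO2 (-0.28 to 0.33), 0.019 for AGO3 (-0.31 to 0.35) and 0.088 for AGO4 (-0.26 to 0.44). TNRC6B stood at -0.0086 (-0.41 to 0.40). The adjusted p was 1.00 for all 9 (limma, Benjamini-Hochberg adjustment over all tested genes).

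The log2 fold change was below 0 for 3 of the 9, TNRC6A, TNRC6B and DICER1, and for 55.6% of all tested genes. With median centring TNRC6B moved to 0.017, leaving 2 of 9 below 0. Without mimic NC 1, 6 of the 9 were below 0. The median log2 fold change of the 9 was 0.019 and that of all tested genes -0.017, and the median size, sign aside, was 0.088 for the members and 0.086 for all. Of the 7 members with a seed match, 2 had a log2 fold change below 0, and the median of the 7 was 0.019, against 0.048 for the 3 without. That 0.048 is the value of TNRC6C itself, taken from the fit of all genes, with 83 to 91 reads per library. TNRC6A stood at -0.12 and XPO5 at 0.10, so the medians of the members with and without a match cannot be told apart. The members with an 8-base site, AGO3 and AGO4, are among those above 0.

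Within each replicate number, where 1 mimic library faces 1 control, the ratios of some members were alike in the 2 numbers and those of others were not. Intervals here are exact binomial 95% intervals on the ratio of reads scaled to library size, and cover counting error only. DROSHA was higher with the mimic in both, at ratios of 1.07 (1.05 to 1.10) in number 1 and 1.10 (1.08 to 1.13) in number 2. XPO5 was likewise above 1 in both, at 1.08 (1.02 to 1.15) and 1.09 (1.02 to 1.17). These were the only members whose intervals lay above 1 in both numbers.

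TNRC6A had a ratio of 1.04 (1.01 to 1.08) in number 1 and 0.797 (0.761 to 0.834) in number 2. TNRC6B was at 1.06 (1.00 to 1.12) and then 0.920 (0.854 to 0.992). For both scaffolds the intervals lay on opposite sides of 1. DICER1 was at 1.01 (0.961 to 1.07) in number 1 and 0.811 (0.760 to 0.864) in number 2. AGO2 was at 1.08 (1.02 to 1.14) and 0.976 (0.916 to 1.04), and AGO1 at 1.01 (0.947 to 1.07) and 1.00 (0.935 to 1.07). AGO1 was the only member whose interval held 1 in both numbers. AGO4 was at 0.948 (0.856 to 1.05) and 1.26 (1.12 to 1.42), AGO3 at 0.954 (0.878 to 1.04) and 1.10 (1.00 to 1.21), and TNRC6C at 1.00 (0.736 to 1.36) and 1.5 (1.10 to 2.06).

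By the sign of the difference in log2(RPKM + 1), 4 members agreed between the numbers (AGO1, TNRC6C, DROSHA and XPO5) and 6 did not, while 59.5% of all tested genes agreed. The counting interval left out 1 for 5 of the 10 members in number 1 and for 8 in number 2, and for 37.4% and 52.2% of all tested genes. The median size of the difference was 0.0536 in number 1 and 0.103 in number 2 for the members, and 0.0748 and 0.133 for all tested genes. Whether the mimic's effect differed between the numbers was not tested, since 4 libraries leave no residual for it. The library miR-217 mimic 2 was the highest or the lowest of the 4 for 8 of the 10 members, against 63.9% of all tested genes. Mimic NC 1, mimic NC 2 and miR-217 mimic 1 took that place for 4 members each, against 48.7%, 45.8% and 41.7% of all tested genes. The 10 members include TNRC6C, which was not among the tested genes.

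**Figure D3:**
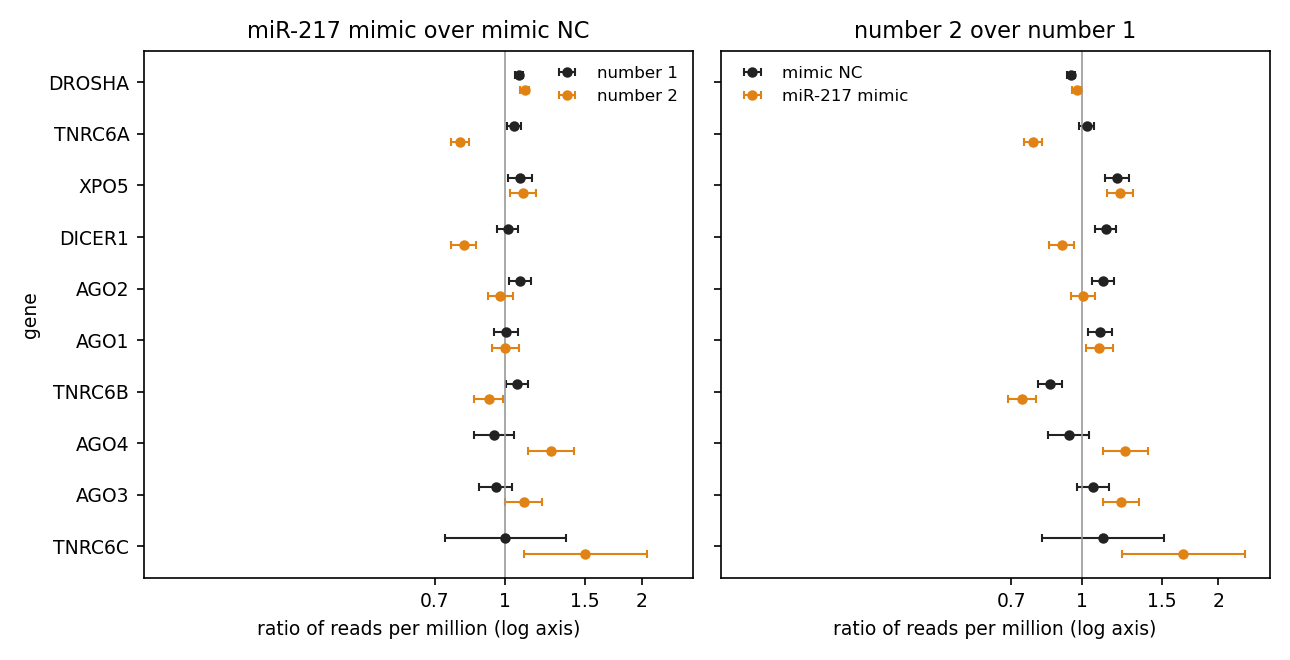
Ratio of reads scaled to library size for each gene (log axis), with 95% counting intervals; left, miR-217 mimic over mimic NC within number 1 (black) and number 2 (orange); right, number 2 over number 1 within mimic NC (black) and miR-217 mimic (orange). TNRC6A and DICER1 fall near 0.8 only in number 2 on the left, while XPO5 lies near 1.2 in both groups on the right.

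The libraries were also compared by number. In a limma fit with group and number as terms, 2900 of the 13871 genes (20.9%) were called between number 2 and number 1, and 0 of the 9 members. An unadjusted p under 0.05 was reached by 1 member, XPO5, and by 33.4% of all tested genes, and an adjusted p under 0.05 by 0 members and 8.38% of all. The numbers did not overlap for 5 of the 9 members and for 62.4% of all tested genes. Of these 5, XPO5, AGO1, AGO2 and AGO3 were higher in number 2, as were 26.9% of all tested genes, and TNRC6B was lower, as were 35.5%. XPO5 was 0.22 higher in number 2 on the log2 scale (SE 0.07, 95% interval 0.02 to 0.42, limma with Benjamini-Hochberg adjustment, adjusted p = 0.127), and 0.27 higher by limma voom on recovered reads (Benjamini-Hochberg adjustment, adjusted p = 0.0451). Its ratio of number 2 over number 1 was 1.20 (1.13 to 1.27) in mimic NC and 1.21 (1.14 to 1.29) in miR-217 mimic.

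TNRC6B stood at -0.22 between the numbers (SE 0.09, -0.47 to 0.02, limma with Benjamini-Hochberg adjustment, adjusted p = 0.175), with ratios of 0.853 in mimic NC and 0.739 in miR-217 mimic. It was called by limma voom on recovered reads, at -0.33 (Benjamini-Hochberg adjustment, adjusted p = 0.0303). By voom 1 of the 9 members was called and 2 (XPO5 and TNRC6B) had an adjusted p under 0.05, against 25.2% and 23.6% of all tested genes. TNRC6A differed by -0.14 (95% interval -0.44 to 0.15), with ratios of 1.02 and 0.781, and DICER1 by 0.01 (-0.26 to 0.28), with ratios of 1.13 and 0.903. For TNRC6A and DICER1 the 2 groups gave ratios on opposite sides of 1. The remaining members differed by between -0.06 for DROSHA and 0.10 for AGO1.

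The other genes of the pathway were read against the same fit. The list held 65 genes, of which 61 were tested. Between miR-217 mimic and mimic NC, 0 of the 61 were called or had an unadjusted p under 0.05 by limma. Of all tested genes 1.15% were called and 1.19% had such a p, so the 0 lies near the share of all genes. The log2 fold changes of the 61 ran from -0.30 to 0.31, 31 of the 61 were below 0, and the median was -0.0016. The groups did not overlap for 17 of the 61, with 13 of these lower with the mimic and 4 higher, against 13.5% and 9.72% of all tested genes.

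Upstream, among 6 tested genes of nuclear processing, HNRNPA1, an RNA-binding protein that remodels some primary hairpins, had the largest difference at 0.19 (95% interval -0.24 to 0.62). Of 4 export and dicing partners it was PRKRA, a DICER1-binding protein also called PACT, at -0.27 (-0.69 to 0.15), from 4.61 and 6.15 RPKM in mimic NC and 4.47 and 4.05 RPKM in miR-217 mimic. Both mimic values of PRKRA were below both controls, as for 13.5% of all tested genes. Those of HNRNPA1 were above both controls, as for 9.72%. Both genes were chosen by this same comparison, so the separation adds no support. Of 8 genes of tailing and turnover the largest was TUT7, a uridyl transferase, at -0.12 (-0.53 to 0.29).

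Around Argonaute, the 7 chaperones that help load the duplex had the highest median of the 8 role groups, 0.12. Of the 7, 1 was below 0, against 55.6% of all tested genes. The groups overlapped for all 7, and did not overlap for 23.2% of all tested genes. Between the numbers 3 of the 7 were called, against 20.9% of all tested genes. HSPA8, the constitutive Hsp70, had the largest difference among the chaperones at 0.31 (95% interval -0.27 to 0.90), from 220 and 157 RPKM in mimic NC and 257 and 208 RPKM in miR-217 mimic. Its groups overlapped. HSPA8 and HNRNPA1 have processed pseudogenes that could share reads with them, so their levels are uncertain. Of 9 Argonaute partners the largest was P4HA1, a prolyl hydroxylase subunit that can modify AGO2, at -0.30 (-0.63 to 0.04), from 34.0 and 32.6 RPKM in mimic NC and 28.6 and 25.2 RPKM in miR-217 mimic. The groups of P4HA1 did not overlap, with the mimic lower, as for 13.5% of all tested genes. P4HA1 was chosen by this same comparison, so the separation adds no support.

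Downstream, CNOT8, a catalytic deadenylase of the CCR4-NOT complex recruited by GW182 proteins, stood at -0.30 (95% interval -0.77 to 0.17). It had the largest difference of the 13 genes grouped with the deadenylases, which include other subunits and the poly(A)-binding protein PABPC1. The RPKM of CNOT8 was 29.6 and 24.841 in mimic NC and 24.837 and 19.1 in miR-217 mimic. The groups thus only just failed to overlap, and CNOT8 was chosen by this same comparison. Of 11 genes of decapping and decay the largest was the helicase DDX6, at -0.18 (-0.80 to 0.44). Of 3 genes of translational repression it was the cap-binding protein EIF4E2, at -0.16 (-0.85 to 0.53). None of these differences passed the test, and the adjusted p of each was 1.00 (limma, Benjamini-Hochberg adjustment). Of the 65 pathway genes, 22 (33.85%) held a 7-base or 8-base seed match, against 21.68% of tested genes with an annotated 3′ UTR, with no allowance for UTR length. Of the 21 with a match and an expression value, 13 had a log2 fold change below 0, as did 55.6% of all tested genes. The median was -0.031 for these 21, 0.0011 for the 43 without a match and -0.017 for all tested genes. The 21 and the 43 include the 3 pathway genes below the filter, from the fit of all genes.

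**Figure D4:**
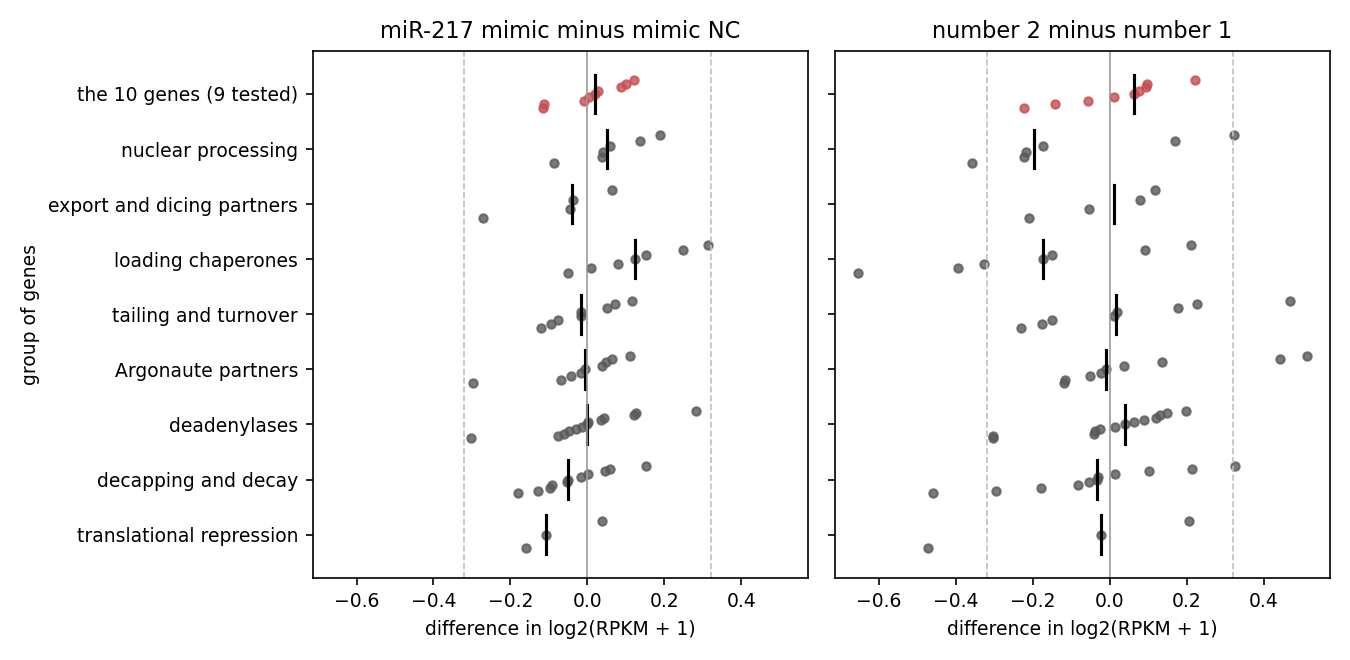
Difference in log2(RPKM + 1) of each tested gene (dots) by role, with the median of each role as a black bar and dashed lines at 0.32 in size; left, miR-217 mimic minus mimic NC; right, number 2 minus number 1. On the left every dot lies inside the dashed lines, and on the right 11 of the 61 pathway genes were called.

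The genes whose profile over the 4 libraries was nearest to that of AGO2 were ZBTB24, TOR4A and HSPA14, by root mean square difference of centred log2(RPKM + 1), at 0.0028, 0.0042 and 0.0054. For DICER1 they were ACVR1B, GPSM1 and MCCC1-AS1, at 0.0037, 0.0077 and 0.0099. With 4 libraries such likeness is common, as 8 genes lay within 2 times the third distance for AGO2 and 26 for DICER1.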

How the data were processed

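RNA-seq of 4 libraries was analysed from 1 deposited table. The authors deposited RPKM per gene with exon positions and length. The submitters' processing notes name Trimmomatic 0.36, featureCounts of Subread 1.5.1, edgeR 3.12.1 and hg38. The aligner, the annotation and the treatment of reads with several matches were not given in the sources used here. RPKM was multiplied by length and divided by the smallest nonzero product of the same library, which was assumed to be 1 read. All nonzero values then came out as whole reads within 0.01, and their sum gave the depth.

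Groups followed the treatment label. Genes with a mean of at least 1 RPKM were tested on log2(RPKM + 1) with limma 3.58.1 (R 4.3.3, trended prior, two-sided, Benjamini-Hochberg adjustment over all tested genes), without a term for number in the mimic comparison. The fit was tested on simulated data. Shares were compared by an exact permutation test over libraries (SciPy 1.17.1), and counting intervals are 95% exact binomial. The 10 genes, the pathway list and the tests were chosen with earlier results of these data known. Named pathway genes were those with an unadjusted p under 0.05 between the groups (there were none) and the one with the largest absolute log2 fold change in each role. For AGO2 and DICER1 the 3 genes nearest in profile were named. DGCR8 and TARBP2 were named outside this rule, after their values were seen. Expression of the pathway gene LIN28B (searched for seed matches) and of the marker PGR was not analysed here, and LIN28A, WTIP and TRIM71 were below the filter. Seed matches used GENCODE 29, whose 10 member genes lie inside the deposited positions, and RefSeq for miR-217. Other settings tried were an added 0.1 in place of 1, all genes unfiltered, a minimum mean of 5 RPKM, median centring, a term for number, limma voom on recovered reads, and leaving out each library. Figures used matplotlib 3.10.9 in Python 3.11.15.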

Additional observations from a re-analysis of the deposited data

How the results depend on the processing

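With 2 libraries in each group, the median standard error of a member's log2 fold change was 0.13, and no permutation p could fall below 0.333. Between miR-217 mimic and mimic NC, 0 members and 0 pathway genes were called under every alternative that kept all libraries. With no filter, a mean of at least 5 RPKM or a replicate block, each log2 fold change equalled that of the main fit. None of these reached 0.32 in size, so 0 calls was fixed in advance there and adds no support. Where a library was left out, the lone library of its group was assumed to vary like the others. The count over all genes moved from 159 to 314 with no filter, 47 with a mean of at least 5 RPKM, 82 with voom and 501 with voom and a replicate block, and to between 92 (without mimic NC 2) and 873 (without miR-217 mimic 1) when 1 library was left out. The labels do not say that the numbers pair the libraries. The number 2 minus number 1 differences in the 2 groups correlated across genes at 0.68, and component 1, with 71.3% of the variance, separated the numbers. With the replicate block 487 genes were called, 0 of them members, and of the 61 pathway genes 5 had an unadjusted p under 0.05, against 7.54% of all tested genes, and 0 were called. The count of members below 0 (3 of 9) was 1 of the 2 tested with a mean of at least 5 RPKM, and 3 to 6 when 1 library was left out. In number 2 against number 1, voom called 1 member (TNRC6B), against 25.2% of all tested genes. Of 56 other values of the members' log2 fold changes under these alternatives, 55 kept their sign and 1 turned, TNRC6B at 0.017 with median centring. The values with no filter, a mean of at least 5 RPKM or a replicate block equalled the main ones, so their sign could not turn. Leaving out 1 library turned the sign 10 times, in 7 genes: the values ran from -0.045 to 0.054 for AGO1, -0.031 to 0.087 for AGO2, -0.0018 to 0.093 for AGO3, -0.019 to 0.20 for AGO4, -0.27 to 0.041 for TNRC6A, -0.15 to 0.14 for TNRC6B and -0.016 to 0.22 for XPO5. Each of these turns came without mimic NC 1 or without miR-217 mimic 2. With all libraries kept, the lowest p for a member was 0.108, for DROSHA by limma voom on recovered reads with a replicate block. AGO3 fell below the filter without miR-217 mimic 2. The AGO2 share differed by -1.88 to 1.44 percentage points and the TNRC6A share by -3.07 to -0.342 when 1 library was left out.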

Other observations

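The other genes of the microRNA pathway were also compared between the replicate numbers. Of the 61 tested pathway genes, 11 were called between number 2 and number 1 in the limma fit with group and number (5 higher and 6 lower in number 2), against 20.9% of all tested genes. With Benjamini-Hochberg adjustment, 5 of the 61 had an adjusted p under 0.05 in limma, against 8.38% of all tested genes. These 5 were named after their values were seen. HSP90AA1, an inducible Hsp90 that takes part in loading Argonaute and has close pseudogenes, was lower in number 2 by a log2 difference of -0.66 (limma adjusted p = 0.0357), and DDX6, the helicase of silencing and decapping, by -0.46 (limma adjusted p = 0.0458). CSNK1A1, a kinase that can phosphorylate AGO2, was higher by 0.51 (limma adjusted p = 0.0392), AJUBA, a LIM protein of processing bodies, by 0.44 (limma adjusted p = 0.0418), and PNPT1, a mitochondrial exonuclease that can degrade microRNAs, by 0.47 (limma adjusted p = 0.0399). For all 5 genes the 2 libraries of one number lay above the 2 of the other, but they were chosen by this same comparison. The numbers did not overlap for 40 of the 61 tested pathway genes and for 62.4% of all tested genes. What the number marks is not stated in the labels.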
